A study of Mus musculus with 32 samples.

Results

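Nucleotide excision repair finds a DNA lesion by one of a pair of routes, and the 10 genes described here encode the proteins that make that first contact. In transcription-coupled repair an RNA polymerase II that stalls at a lesion on the transcribed strand is met by CSB (Ercc6), CSA (Ercc8), UVSSA (Uvssa), XAB2 (Xab2) and ELOF1 (Elof1). In global repair XPC (Xpc), with RAD23B (Rad23b) and centrin 2 (Cetn2), senses a distorted helix anywhere in the genome, and the DDB1-DDB2 complex (Ddb1, Ddb2) binds lesions and carries a ubiquitin ligase. Both routes then hand the lesion to TFIIH, which unwinds the DNA before a short lesion-bearing oligomer is cut out. Cisplatin mainly forms intrastrand crosslinks between neighbouring guanines, which this pathway removes.

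The members were taken as a list of 10 gene symbols, 5 for each route, and all 10 were found among the 25058 genes that the deposited tables share. All 10 also passed the gene filters used for the strand-resolved assays, as did 16502 of the 25040 genes with a position in the annotation (GENCODE M21 on GRCm38).

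The samples were kidney, liver, lung and spleen of wild-type C57BL/6J female mice aged 6 to 7 months. Treated mice received 10 mg/kg cisplatin intraperitoneally and control mice received saline. The labels give 2 h between injection and collection, whereas the protocol places injection at ZT1 and collection at ZT5 (hours after lights on), which is 4 h. RNA-seq of poly-A selected RNA was available for control and cisplatin mice, with 2 libraries per organ and treatment (16 libraries). Damage-seq, which maps adducts in genomic DNA, and XR-seq, which sequences the oligomers that excision repair releases and TFIIH antibodies capture, were available for cisplatin mice alone, with 2 libraries per organ each (8 and 8 libraries). No untreated Damage-seq or XR-seq library was analysed here, so a value in these assays is a level after cisplatin and not a change. The study describes the replicates as biological, and the labels number them without saying which libraries share a mouse. p-values therefore measure the spread between these libraries.

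Total counts per library were 15619474 to 162270280 in RNA-seq, 10658675 to 59779770 in XR-seq and 1571167 to 6441367 in Damage-seq. The control RNA-seq libraries of lung, and likewise those of spleen, differed by little more than sampling noise (dispersion indices of 2.748 and 2.985, where 1 is sampling noise alone, against 39.3 to 349.6 for the other RNA-seq pairs). Each of these pairs was counted as 1 sample, under a limit of 3 on the index, which left 14 RNA-seq samples. Within lung and within spleen, the test of cisplatin against control therefore took its spread from the 2 cisplatin libraries. The 1 control sample was assumed to vary like them. Where 2 control values are given for lung or spleen below, they are libraries of that 1 sample. Kidney XR-seq library 1 had gaps. Of 16943 genes with at least 15 transcribed-strand reads predicted from the second kidney library, 943 (5.57%) had 0, against at most 1.91% on that strand in the other XR-seq libraries. On the non-transcribed strand 2169 of 15969 such genes (13.6%) had 0, against at most 3.23% in the other libraries. Cetn2 fell in such a gap, with 0 reads on both strands in that library against 195 and 7 in the second. For the members' XR-seq results, call counts without kidney library 1 are given below, with the strand ratios of Elof1, Rad23b and Cetn2.

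Marker genes of each organ were high in that organ's RNA-seq libraries. Summed RPKM (reads per kilobase of exon, scaled to library size) of the 5 kidney markers was 2660 to 3620 in kidney, and that of the 5 liver markers was 33600 to 65200 in liver. Lung markers summed to 107000 to 128000 in lung and lymphocyte markers to 752 to 851 in spleen. Markers of other cells moved with treatment in lung and spleen. The lymphocyte list summed to 92.6 to 94.4 in control lung and 20 to 27.6 in cisplatin lung, and the erythroid list to 9230 to 9690 and 3870 to 5090. The list of pancreatic acinar markers summed to 6.68 to 7.32 in control spleen and 1010 to 1300 in cisplatin spleen, with 5 of 5 genes called higher. The neutrophil list summed to 77.0 to 81.6 and 136 to 188 in lung and 651 to 660 and 842 to 1330 in spleen, and to at most 9.92 in kidney and liver. Their part in the lung and spleen results was not tested. The p53 target Cdkn1a, a cell cycle inhibitor induced by DNA damage, stood at 4.24 and 8.46 RPKM in control kidney and 121 and 128 after cisplatin. It rose in kidney (log2 change 4.33, adjusted p = 0.00735, edgeR's quasi-likelihood test with Benjamini-Hochberg adjustment, as throughout) and in lung (1.90, adjusted p = 0.0193). In liver (3.07, adjusted p = 0.262) and spleen (1.5, adjusted p = 0.461) it did not pass.

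Because every strand-resolved value below is a read count at or near GG dinucleotides, stretches of 4 members are shown as both strands present them. Each is 80 bases of an intron near the middle of the gene in GRCm38, 5′ to 3′, with GG in capitals, the sequence at which cisplatin most often crosslinks. NTS is the non-transcribed (coding) strand and TS the transcribed (template) strand. Ercc6 is shown for the members with a strong strand difference in XR-seq, Rad23b for the widest difference between strands in Damage-seq of liver and lung, and Xab2 and Ddb2 for the narrowest in XR-seq.
Ercc6 NTS (chr14:32547215-32547294, plus-strand gene): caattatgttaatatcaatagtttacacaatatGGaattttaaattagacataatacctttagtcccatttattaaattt
Ercc6 TS (chr14:32547215-32547294, plus-strand gene): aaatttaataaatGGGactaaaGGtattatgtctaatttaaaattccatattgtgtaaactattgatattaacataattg
Rad23b NTS (chr4:55371100-55371179, plus-strand gene): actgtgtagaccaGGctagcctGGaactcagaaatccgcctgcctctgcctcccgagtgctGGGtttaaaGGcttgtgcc
Rad23b TS (chr4:55371100-55371179, plus-strand gene): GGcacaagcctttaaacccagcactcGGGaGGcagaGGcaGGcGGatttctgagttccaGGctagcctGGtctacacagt
Xab2 NTS (chr8:3614828-3614907, minus-strand gene): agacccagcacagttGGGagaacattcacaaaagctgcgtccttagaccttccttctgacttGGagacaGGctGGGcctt
Xab2 TS (chr8:3614828-3614907, minus-strand gene): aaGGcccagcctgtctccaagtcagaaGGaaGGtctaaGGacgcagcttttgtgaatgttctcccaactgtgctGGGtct
Ddb2 NTS (chr2:91224237-91224316, minus-strand gene): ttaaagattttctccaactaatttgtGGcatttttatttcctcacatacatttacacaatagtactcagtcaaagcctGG
Ddb2 TS (chr2:91224237-91224316, minus-strand gene): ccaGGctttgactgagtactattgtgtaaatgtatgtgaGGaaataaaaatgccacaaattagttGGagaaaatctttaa

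In these windows GG occurred once on the NTS and 3 times on the TS of Ercc6, 5 and 9 times in Rad23b, 6 and 6 times in Xab2, and 2 and 3 times in Ddb2. The GG content of a strand therefore differs between genes and between the strands of a gene. Over the whole gene Ercc6 held 3187 GG on the TS and 3981 on the NTS, and Xab2 held 904 and 1101. For this reason strand levels are given as CPM per 1000 GG, that is counts scaled to library size and divided by the GG of that strand, and the TS to NTS tests carry the GG counts as an offset.

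The genes differ in size and surroundings. Ercc6 spans 67470 bp at chr14:32513521-32580990, Rad23b 42195 bp at chr4:55350043-55392237, Uvssa 41206 bp at chr5:33378549-33419754 and Ercc8 36634 bp at chr13:108158731-108195364. Xpc spans 26584 bp at chr6:91489305-91515888, Ddb2 25411 bp at chr2:91211572-91236982, Ddb1 24493 bp at chr19:10605327-10629819 and Xab2 12896 bp at chr8:3608421-3621316. Cetn2 with 4880 bp (chrX:72913532-72918411) and Elof1 with 4184 bp (chr9:22112989-22117172) are the shortest members and held the fewest reads. Annotated genes on the opposite strand overlap Xab2 (Camsap3, 655 bp, 12.2% of the exon bases of Xab2), Ddb2 (Acp2, 2527 bp, 23.8%) and Ddb1 (Tkfc, 328 bp, 5.12%). The strand setting of the RNA-seq counting is not given in the sources used here, so the RNA values of these 3 members are uncertain to that extent.

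The members covered a wide range of RNA levels, and their order was much alike in the 4 organs. After cisplatin, Ddb1, Cetn2, Elof1 and Rad23b took the 4 highest places in every organ, followed by Xab2 and then Xpc, and Ddb2, Uvssa, Ercc6 and Ercc8 filled the lowest. Mean RPKM in cisplatin kidney ran from 80.9 for Ddb1, above 96.5% of 19671 genes with reads there, down to 0.723 for Ercc8, above 38.8%. Genes of both routes thus stood at both ends, since Elof1 is a transcription-coupled factor with a high level and Ddb2 a global factor with a low one.

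**Figure D1:**
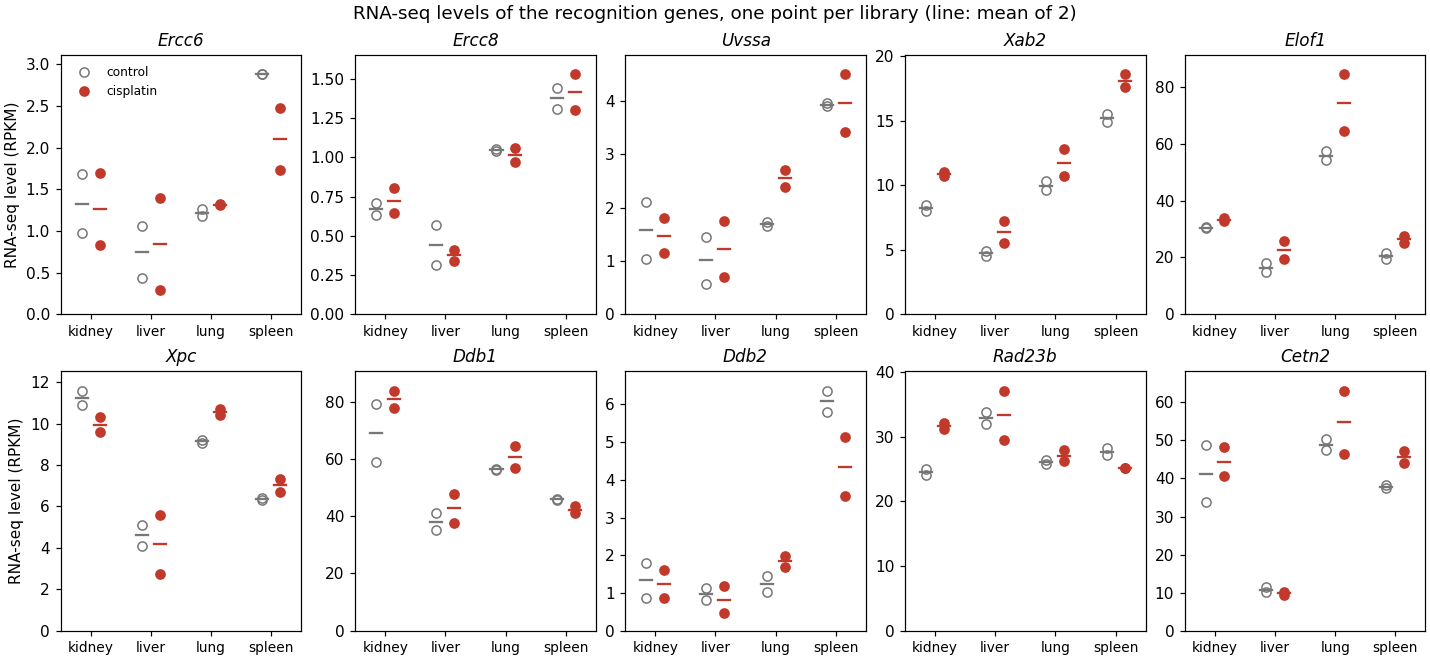
RNA-seq level (RPKM, each panel with its own linear axis from 0) of each member in the 4 organs, 1 point per library, with control open, cisplatin filled and a line at each mean of 2. Ddb1, Cetn2, Elof1 and Rad23b lie at or above 9.32 RPKM in every library, while Ercc8 lies between 0.312 and 1.53 RPKM and is lowest in liver.

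Cisplatin changed the RNA of none of the 10 members past the test in any organ (edgeR, against a log2 change of at most 0.4, adjusted p under 0.05). In kidney 0 of 10 members passed beside 5.05% of the 15461 genes tested, in lung 0 of 10 beside 2.1% of 18245, and in spleen 0 of 10 beside 0.163% of 17748. In liver 0 of 10 passed and so did 0% of 13861 genes, 1261 of which had an unadjusted p under 0.05. The liver count over all genes was 187 with DESeq2, 517 in one fit over all organs, 808 with a replicate block and 22 to 1802 when 1 library was left out, with 0 members in each. No member had an unadjusted p under 0.05 in this test in any organ, and DESeq2 called 0 members in each. Standard errors of the members were 0.163 to 0.466 on the log2 scale in kidney, 0.303 to 0.633 in liver, 0.158 to 0.325 in lung and 0.151 to 0.271 in spleen. In these bulk samples fewer cells of a type and less RNA per cell cannot be told apart. Where groups are said below to overlap or not to overlap, this only describes the library values. The share of all genes with groups that do not overlap is not given here, and by itself such a gap does not show a change.

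Among the transcription-coupled members, Xab2, which binds CSA, CSB and RNA polymerase II and also acts in splicing, stood at 8.01 and 8.47 RPKM in control kidney and 11 and 10.7 after cisplatin. The groups do not overlap, and the log2 change was 0.45 ± 0.170 (SE, adjusted p = 0.557, unadjusted p against no change 0.0372). Its values in liver were 4.92 and 4.51 in controls and 7.24 and 5.52 after cisplatin, in lung 10.3 and 9.65 against 12.8 and 10.7, and in spleen 15.5 and 14.9 against 17.6 and 18.6. Cisplatin libraries of Xab2 were the higher ones in all 4 organs (log2 changes 0.46, 0.24 and 0.29 in liver, lung and spleen), and none of these passed the test. In kidney the overlapping Camsap3 stood at 3.75 and 5.80 RPKM in controls and at 8.54 in both cisplatin libraries, and its part in the Xab2 values was not tested.

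Elof1, an elongation factor that helps to position the repair complex on stalled polymerase, was likewise higher in every organ's cisplatin libraries without passing. Its RPKM was 30.6 and 30.3 against 32.7 and 34.0 in kidney, 14.9 and 18.0 against 19.5 and 25.8 in liver, 57.4 and 54.3 against 64.5 and 84.5 in lung, and 21.5 and 19.5 against 27.5 and 25.2 in spleen. The log2 changes were 0.19, 0.52, 0.42 and 0.41. Uvssa, which brings a deubiquitinase to the stalled polymerase, had its widest difference in lung, with 1.73 and 1.66 RPKM in controls and 2.39 and 2.70 after cisplatin (log2 change 0.59 ± 0.224, adjusted p = 0.552). In kidney its 4 libraries paired by number and not by treatment, at 2.11 and 1.04 in controls and 1.80 and 1.14 after cisplatin. Ercc6, the DNA-dependent ATPase that binds the stalled polymerase, showed the same split in kidney (1.68 and 0.970 against 1.69 and 0.828) and in liver (1.06 and 0.433 against 1.39 and 0.290). In spleen Ercc6 was at 2.88 in both controls and at 1.73 and 2.47 after cisplatin (log2 change -0.43). Ercc8, the substrate receptor of the CSA ubiquitin ligase, stayed within 0.312 to 1.53 RPKM in all libraries, and its groups overlapped in all 4 organs.

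Among the global members, Rad23b, which stabilises XPC, stood at 24.0 and 25.0 RPKM in control kidney and 31.1 and 32.1 after cisplatin. These groups do not overlap, and the log2 change of 0.42 ± 0.163 did not pass (adjusted p = 0.606, unadjusted p against no change 0.0395). In spleen the Rad23b groups do not overlap either and differ the other way, at 28.2 and 27.1 RPKM in controls and 25.1 in both cisplatin libraries. Its liver groups overlap, as do its lung groups, within 25.8 to 37.1 RPKM. Ddb2, a p53 target in human cells, was at 1.45 and 1.03 in control lung and 1.70 and 1.99 after cisplatin (log2 change 0.67 ± 0.325, adjusted p = 0.636), but at 6.37 and 5.79 in control spleen and 3.56 and 5.14 after cisplatin (-0.44). The lung groups and the spleen groups of Ddb2 do not overlap and differ in opposite directions. The difference between these responses, 1.18 ± 0.736, did not pass (adjusted p = 0.878). Xpc, the distortion sensor, was at 10.9 and 11.6 RPKM in control kidney and 9.58 and 10.3 after cisplatin, the only organ in which both its cisplatin libraries lay below both controls. Its cisplatin libraries lay above the controls in lung (9.21 and 9.07 against 10.4 and 10.7) and spleen (6.40 and 6.30 against 6.71 and 7.34). Ddb1, the adaptor of the CUL4 ligases, and Cetn2, the small calcium-binding subunit, had overlapping groups in kidney and liver. Ddb1 groups did not overlap in lung (56.5 and 56.3 RPKM in controls, 64.6 and 57.0 after cisplatin). Nor did they in spleen, in the other direction (45.8 and 46.0 against 41.0 and 43.4). Cetn2 groups overlapped in lung but not in spleen (38.2 and 37.5 against 44.0 and 47.3).

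**Figure D2:**
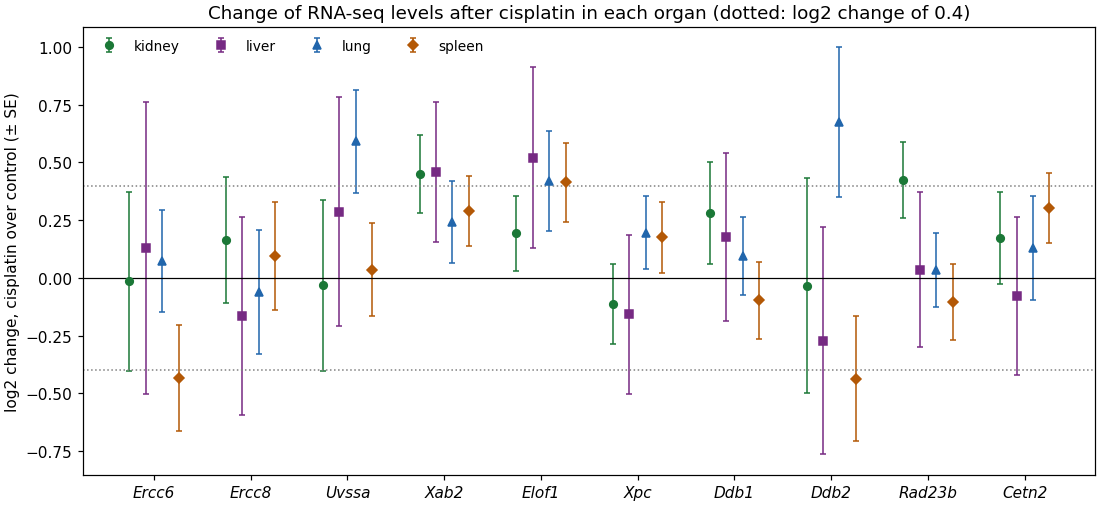
log2 change of each member's RNA after cisplatin in each organ, with the standard error as bars and dotted lines at the log2 change of 0.4 tested against, from edgeR's quasi-likelihood fit. Changes lie between -0.44 (Ddb2 in spleen) and 0.67 (Ddb2 in lung), and none passed the test.

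Over the 10 members the median log2 change was 0.17 (kidney), 0.08 (liver), 0.16 (lung) and 0.07 (spleen), beside medians over all genes of -0.003, 0.057, 0.015 and 0.018. Testing whether the response differed between organs called 0 of 60 member comparisons, beside 0.0611% of 114522, with differences from -1.0 to 1.18 on the log2 scale. In the rest of the pathway, 0 of 10 partners of the recognition factors (such as Cul4a, Usp7 and Tcea1) and 0 of 17 genes of lesion verification, opening and incision (such as Xpa, Ercc1 and the TFIIH subunits) passed in any organ. Of 15 genes of gap filling and ligation, Pcna, the sliding clamp of repair synthesis and a p53 target, rose in kidney (log2 change 1.15 ± 0.195, adjusted p = 0.0461) and no other passed in any organ.

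RNA levels between organs were compared in the cisplatin libraries, where 12 of 60 member comparisons passed, beside 45.9% of 107310 over all genes. Rad23b and Cetn2 set liver apart from each other organ, in opposite directions. Rad23b was higher in liver than in kidney (kidney minus liver log2 difference -0.89, adjusted p = 0.0274), lung (liver minus lung 1.44, adjusted p = 0.00186) and spleen (1.49, adjusted p = 0.00149). Cetn2 was lower in liver than in kidney (kidney minus liver 1.32, adjusted p = 0.00833), lung (-1.30, adjusted p = 0.00895) and spleen (-1.09, adjusted p = 0.0225). The Rad23b call between kidney and liver was lost in 8 of 13 alternatives, among them leaving out either kidney, lung or spleen library, whereas those against lung and spleen held in all 13. The Cetn2 call against spleen was lost in 5.

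The other calls involved spleen. Ddb2 was lower in kidney than in spleen (-1.56, adjusted p = 0.0260) and lower in liver than in spleen (-1.39, adjusted p = 0.0423, lost in 8 of 13 alternatives), and Uvssa was lower in kidney than in spleen (-1.17, adjusted p = 0.0391, lost in 6). Ddb1 was higher than in spleen in kidney (1.22, adjusted p = 0.0141) and in liver (1.11, adjusted p = 0.0227), and Elof1 was higher in lung than in spleen (1.45, adjusted p = 0.00911). No pair of organs passed for Ercc6, Ercc8, Xab2 or Xpc, and neighbours in the order of a member's levels not named here did not differ past the test.

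These orders depend on how libraries are scaled. By the total of all reads, 8 of the 10 members had their lowest mean in liver, and with library sizes adjusted by TMM, as in the fit, 2 of 10 did. The TMM factors were 0.522 to 0.713 in liver, 0.964 to 1.07 in kidney and 1.24 to 1.34 in lung and spleen. Rad23b in cisplatin liver was 37.1 and 29.4 RPKM by all reads, near kidney at 31.1 and 32.1, but 52.0 and 56.3 after TMM against 30 and 33.2. Cetn2 was lowest in liver on both scales, at 9.32 and 10.3 by all reads. The number of member calls was 5 without spleen library 2, 6 without spleen library 1 or lung library 2, and 19 without liver library 1.

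Excision repair of the members was read from XR-seq as oligomers from each strand. On the TS the members had a median of 36.1 to 47.0 CPM per 1000 GG in the 8 libraries, beside 18.4 to 21.9 over the 16502 genes. On the NTS their median was 0.535 to 2.55, beside 1.19 to 2.45. The TS was called above the NTS in 38 of 40 member and organ pairs (9 of 10 members in kidney and liver, 10 of 10 in lung and spleen), beside 58.1% of 66008 over all genes, and in 38 of 40 without kidney library 1.

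**Figure D3:**
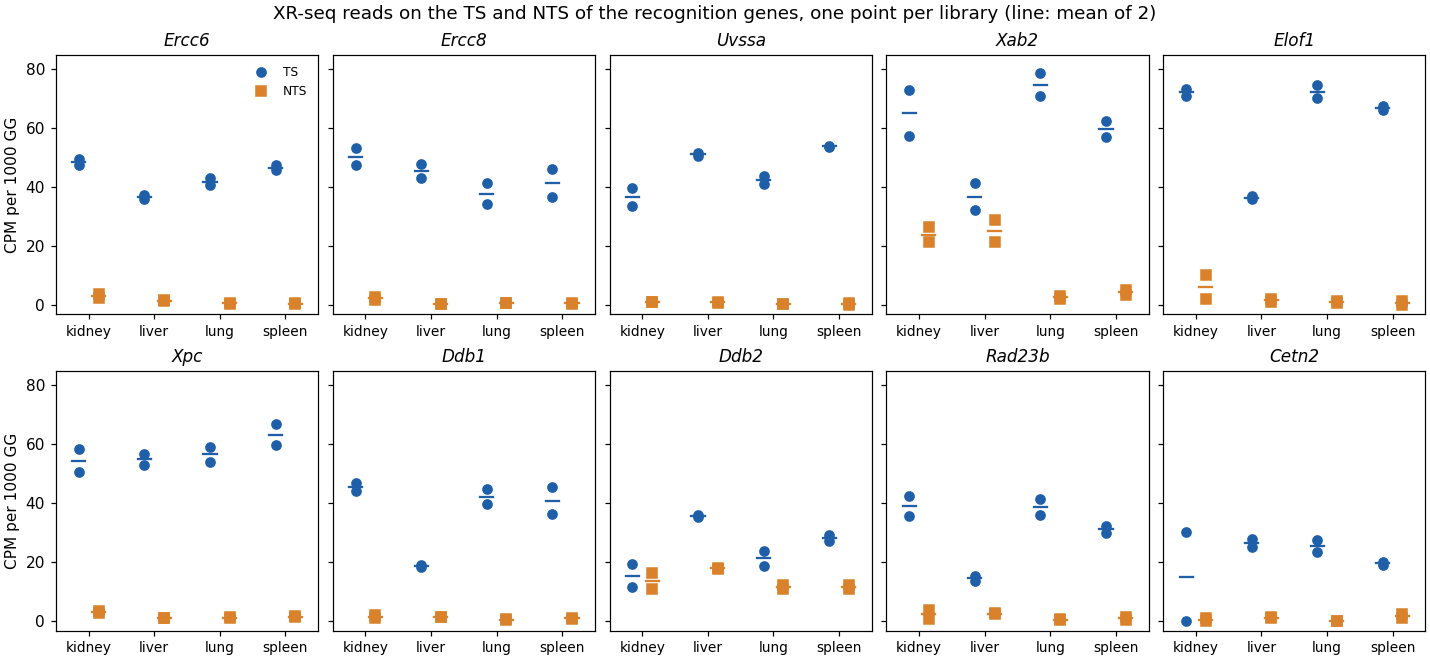
XR-seq level (CPM per 1000 GG) of each member on the transcribed and the non-transcribed strand in the 4 organs, 1 point per library and a line at each mean. TS points lie well above NTS points for 8 members, other than Cetn2 in kidney library 1, where both strands are at 0, whereas the NTS of Ddb2 in every organ, and of Xab2 in kidney and liver, is at 10.9 or higher.

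For the transcription-coupled members, TS levels of Ercc6 were 47.4 and 49.4 CPM per 1000 GG (kidney), 37.3 and 36.1 (liver), 40.6 and 42.9 (lung) and 47.3 and 45.8 (spleen), while its NTS levels were 2.31 and 3.71, 1.42 and 1.62, 0.492 and 0.595, and 0.330 and 0.681. The strands do not overlap in any organ, and the log2 ratio of TS to NTS was 4.04 ± 0.298 in kidney (adjusted p = 1.37e-05), 4.59 in liver, 6.27 in lung and 6.51 in spleen. Uvssa had TS levels of 33.7 and 39.8 (kidney), 51.5 and 50.6 (liver), 41.0 and 43.9 (lung) and 53.6 and 54.0 (spleen), with ratios of 5.13, 5.82, 6.88 and 7.11. Spleen library 1 held 0 NTS reads of Uvssa, and the other libraries were at 0.308 to 1.14. Ercc8 (ratios 4.46, 6.74, 6.10 and 6.37) and Elof1 (3.88, 4.54, 6.24 and 6.55) had at least 88.1% of their reads on the TS in every library. NTS levels of Elof1 in kidney were 10.2 in library 1 and 2.17 in library 2, and its ratio there was 5.07 without library 1. Spleen library 1 held 0 NTS reads of Elof1, whose spleen ratio was 5.70 without it, and that of Uvssa 6.07.

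Xab2 was the coupled member with the most NTS repair. Its TS levels were 57.3 and 72.8 (kidney), 41.3 and 32.1 (liver), 70.9 and 78.5 (lung) and 62.4 and 56.8 (spleen). Its NTS levels were 26.3 and 21.2 (kidney), 21.2 and 28.9 (liver), 3.13 and 2.09 (lung) and 5.20 and 3.33 (spleen). The NTS thus carried several times more repair reads of Xab2 in kidney and liver than in lung and spleen. The TS share of reads was 64.2% and 73.8% (kidney), 61.6% and 47.7% (liver), 94.9% and 96.9% (lung) and 90.8% and 93.3% (spleen). The log2 ratio was 1.45 ± 0.332 in kidney (adjusted p = 0.00541), 4.86 in lung and 3.85 in spleen, and in liver 0.56 ± 0.327 did not pass (adjusted p = 0.173). Camsap3, a microtubule minus-end protein whose gene runs the other way across the end of Xab2, was itself repaired on its own TS at 61.8 and 55.1 (kidney), 37.8 and 36.7 (liver), 7.13 and 6.26 (lung) and 11.2 and 10.0 (spleen). The TS of Camsap3 is the same DNA strand as the NTS of Xab2, and its part in the Xab2 values was not tested.

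Of the global members, Xpc, Ddb1, Rad23b and Cetn2 showed TS repair in the same way. Xpc was at 58.4 and 50.7 on the TS (kidney), 56.7 and 53.1 (liver), 59.0 and 54.2 (lung) and 66.9 and 59.7 (spleen), with ratios of 4.11, 5.47, 5.43 and 5.34. Ddb1 had ratios of 4.80 (kidney), 3.63 (liver), 6.13 (lung) and 5.29 (spleen), and Rad23b 4.27, 2.51, 6.02 and 5.02 (3.49 in kidney without library 1). Both had their smallest ratio in liver, where Rad23b had 85.1% and 81.6% of its reads on the TS against at least 90.8% elsewhere. Cetn2 rested on few NTS reads and, in kidney, on 1 library with any read, and its ratios were 4.66 ± 1.56, 4.41, 7.60 and 3.46 (4.74 in kidney without library 1).

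Ddb2 had its strands nearest of all members in kidney, lung and spleen, and in liver those of Xab2 alone were nearer. Its TS levels were 19.4 and 11.7 (kidney), 35.5 and 36.2 (liver), 24.0 and 18.9 (lung) and 29.3 and 27.4 (spleen), and its NTS levels 16.3 and 10.9, 18.1 and 17.9, 11.1 and 12.2, and 12.2 and 10.9. The TS share of its reads was 53.3% to 72.7%. In kidney the strands overlap and the log2 ratio of 0.18 ± 0.258 did not pass (adjusted p = 0.571), while liver (0.99, adjusted p = 0.00998), lung (0.87, adjusted p = 0.0179) and spleen (1.30, adjusted p = 0.00289) did. Acp2, a lysosomal phosphatase gene on the opposite strand that overlaps Ddb2, was at 26.0 to 63.1 on its own TS, and its part in the Ddb2 values was not tested.

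A TS to NTS ratio over both strands includes the general excess of TS repair, since the median log2 ratio over all genes was 2.70 (kidney), 2.11 (liver), 3.14 (lung) and 3.07 (spleen). Each strand was also scaled on its own, which takes out the difference in read totals between the strands. Then 29 of the 40 member ratios were called with the TS higher and 5 with it lower. Over all genes, 31341 of 66008 ratios were called with that scaling, 18737 of them with the TS higher. On that scale the ratio of Ddb2 was -2.17 (kidney), -0.97 (liver), -2.0 (lung) and -1.42 (spleen), and that of Xab2 was -0.90 in kidney (adjusted p = 0.0594) and -1.40 in liver, the calls in the lower direction being the 4 of Ddb2 and that of Xab2 in liver.

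**Figure D4:**
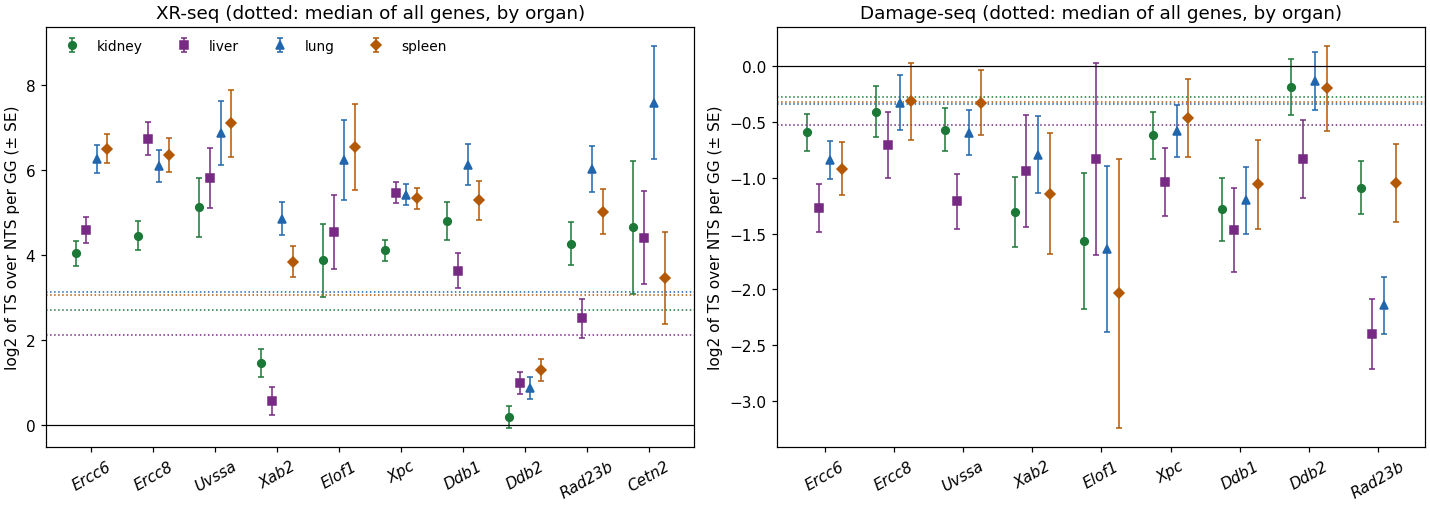
log2 ratio of TS to NTS levels per GG of each member in each organ, XR-seq in one panel and Damage-seq in the other, with standard errors as bars and dotted lines at the median of all genes per organ. XR-seq ratios run from 0.18 (Ddb2 in kidney) to 7.60 (Cetn2 in lung) and Damage-seq ratios reach -2.40 (Rad23b in liver), and Cetn2 is left out of the Damage-seq panel because spleen held 0 TS reads.

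Between organs, TS repair differed in 20 of 60 member comparisons, beside 34.8% of 99012 over all genes. Of the 20, 17 set liver against another organ. Liver also stood apart over all genes. In the same test, 8552, 8818 and 8454 of 16502 genes had an unadjusted p under 0.05 for liver against kidney, lung and spleen. The pairs without liver had 5479 (kidney and lung), 6031 (kidney and spleen) and 4685 (lung and spleen). Median log2 differences over all genes were 0.359 (kidney minus liver), -0.234 (liver minus lung) and -0.253 (liver minus spleen). Rad23b was at 35.7 and 42.6 CPM per 1000 GG (kidney), 15.4 and 13.8 (liver), 36.2 and 41.4 (lung) and 30.1 and 32.5 (spleen). Liver lay below every library of the other organs, by log2 differences of 1.42 ± 0.149 from kidney (adjusted p = 1.22e-05), 1.40 from lung (adjusted p = 1.27e-05) and 1.10 from spleen (adjusted p = 9.55e-05). Ddb1 showed the same order, at 44.2 and 46.8 (kidney), 19.3 and 18.3 (liver), 39.7 and 44.9 (lung) and 36.3 and 45.6 (spleen) (kidney minus liver 1.27 ± 0.163, adjusted p = 6.06e-05). Elof1, at 35.8 and 36.9 in liver against 66.1 to 74.5 elsewhere, and Xab2, at 41.3 and 32.1 in liver against 56.8 to 78.5 elsewhere, were also called lower in liver than in each other organ. For Rad23b and Ddb1 these 6 calls held under all 12 alternatives tried.

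Ddb2 and Uvssa had another order. Ddb2 was higher in liver than in kidney (kidney minus liver -1.21 ± 0.230, adjusted p = 0.00121) and lung (0.74, adjusted p = 0.0216), and higher in spleen than in kidney (-0.87, adjusted p = 0.0107). Uvssa was lower in kidney than in liver (-0.47, adjusted p = 0.00466) and spleen (-0.55, adjusted p = 0.00183), and lower in lung than in spleen (-0.34, adjusted p = 0.0286). Ercc6 was called higher in kidney than in liver (0.40, adjusted p = 0.00593), which became -0.04 with TMM scaling and with DESeq2, and lower in liver than in spleen (-0.34, adjusted p = 0.0149). No pair of organs passed for Ercc8, Xpc or Cetn2. Rad23b, with the higher liver RNA after TMM scaling, had the lower liver TS repair. Ddb1 had, after TMM scaling, a liver RNA level above that of spleen, and its TS repair level, scaled to library totals, was below that of spleen. By all reads the Ddb1 RNA levels overlapped, at 47.9 and 37.6 RPKM in cisplatin liver and 41.0 and 43.4 in cisplatin spleen. The number of member calls was 23 without kidney library 1 and 16 to 27 over all libraries left out in turn.

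NTS repair differed between organs in 8 of 60 member comparisons, beside 13.4% of 99012. All 8 were of Ercc6 and Xab2 with kidney or liver above lung or spleen. The median log2 difference over all genes had the same direction, at 0.698 (kidney minus lung), 0.535 (kidney minus spleen), 0.67 (liver minus lung) and 0.478 (liver minus spleen). For Xab2 the differences were 3.18 (kidney minus lung, adjusted p = 0.000118), 2.52 (kidney minus spleen, adjusted p = 0.000473), 3.25 (liver minus lung, adjusted p = 0.000103) and 2.59 (liver minus spleen, adjusted p = 0.000399). For Ercc6 they were 2.47 and 2.52 from kidney and 1.49 and 1.53 from liver, to lung and spleen in that order, with adjusted p of 0.00426, 0.00439, 0.0436 and 0.0430. The number of calls was 14 without kidney library 1, 16 without kidney library 2 and 5 without lung library 1. Without kidney library 1 the added calls were of Rad23b (such as kidney minus lung 2.67) and Ddb2 (such as liver minus lung 0.63).

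The TS to NTS ratio itself differed between organs in 13 of 60 member comparisons, beside 7.54% of 99012, and in each the ratio was lower in kidney or liver. Xab2 gave 4 of them, from -2.39 (kidney minus spleen) to -4.30 (liver minus lung), and Ercc6 another 4, from -1.68 to -2.46. The rest were Rad23b (-3.51) and Ddb1 (-2.50) for liver minus lung, Ercc8 (-2.28) and Xpc (-1.36) for kidney minus liver, and Xpc (-1.32) for kidney minus lung. The number of calls depended on single libraries, over all genes as among the members. Without liver library 1, or without liver library 2, 0 members passed, and 3 passed without either lung library, while 13 passed without kidney library 1 (both of Xpc lost, and Rad23b gained for kidney minus lung and liver minus spleen) and 20 without kidney library 2.

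Adducts that remained at collection were read from Damage-seq. Member counts were small, at 0 to 146 TS and 1 to 276 NTS reads per library, and their median level was 3.55 to 7.60 CPM per 1000 GG on the TS and 7.30 to 10.6 on the NTS, beside 5.36 to 8.17 and 8.12 to 10.5 over the 16502 genes. The TS was called below the NTS in 19 of 40 member and organ pairs (kidney 7, liver 5, lung 4, spleen 3), beside 24.9% of 66008 over all genes, and above it in 0 (DESeq2 called 11 in all). Without kidney library 1 the number was 12, and all 7 kidney calls were lost. The median log2 ratio over all genes was -0.28 (kidney), -0.53 (liver), -0.34 (lung) and -0.32 (spleen), and with each strand scaled on its own 7 member calls were left.

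**Figure D5:**
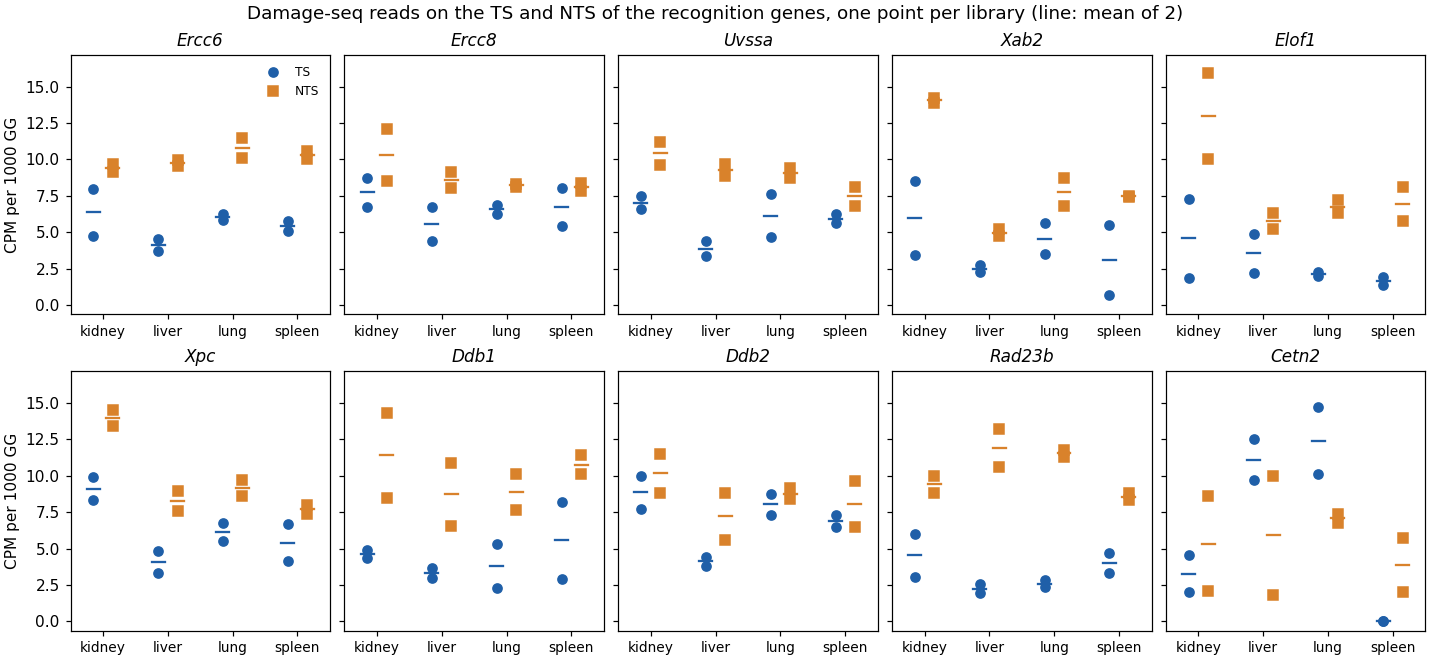
Damage-seq level (CPM per 1000 GG) of each member on the transcribed and the non-transcribed strand in the 4 organs, 1 point per library and a line at each mean. TS points of Rad23b lie between 1.94 and 6.02 and its NTS points between 8.34 and 13.2.

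Rad23b had the widest gap between strands in liver and lung. Its TS levels were 3.08 and 6.02 CPM per 1000 GG (kidney), 1.94 and 2.57 (liver), 2.35 and 2.85 (lung) and 3.33 and 4.73 (spleen), and its NTS levels 10.0 and 8.84, 10.6 and 13.2, 11.3 and 11.8, and 8.80 and 8.34. No TS value reaches an NTS value of the same organ, and the log2 ratios were -1.09 in kidney, -2.40 ± 0.314 in liver (adjusted p = 4.41e-10), -2.14 in lung (adjusted p = 1.78e-11) and -1.05 in spleen, the kidney value being -0.55 (adjusted p = 0.257) without library 1. Liver thus had both the lowest TS repair and a wide strand gap in adducts for Rad23b. Ddb1 was called in all 4 organs as well (-1.28, -1.47, -1.20 and -1.06), as was Ercc6 (-0.60, -1.27, -0.84 and -0.92). In kidney without library 1, Ddb1 was at -0.96 (adjusted p = 0.094) and Ercc6 at -0.19 (adjusted p = 0.671).

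Uvssa passed in kidney, liver and lung (-0.57, -1.21 and -0.60), Xpc in kidney (-0.62) and liver (-1.04), and Xab2 (-1.31) and Elof1 (-1.57 ± 0.607, adjusted p = 0.0434) in kidney alone. The kidney values without library 1 were -0.37 for Uvssa, -0.44 for Xpc, -0.71 for Xab2 and -0.46 for Elof1, and none passed. Elof1 had 4 TS and 32 NTS reads in kidney library 1 and 14 and 18 in library 2, and its call was lost in 6 of 12 alternatives. Ercc8, Ddb2 and Cetn2 passed in no organ. For Ercc8 the absence of a call stands beside a clear TS excess in XR-seq. Ercc8 adduct levels were 6.76 and 8.70 on the TS and 8.53 and 12.1 on the NTS in kidney, and its counts per library were 19 to 79 and 22 to 124.

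Between organs, TS adduct levels differed in 5 of 60 member comparisons, beside 10.8% of 99012. Uvssa (0.83, adjusted p = 0.0289), Xpc (1.19, adjusted p = 0.00486) and Ddb2 (1.09, adjusted p = 0.0171) were higher in kidney than in liver. Cetn2 had 0 TS reads in both spleen libraries, which together held 3 NTS reads, and it had 16 TS reads in liver and 32 in lung. Against a floor of 3 reads over the spleen group, it was 3.10-fold higher in liver and 3.54-fold higher in lung. These folds take the liver and lung counts as exact. DESeq2 called 0 of the 5 comparisons. TMM scaling kept the 2 Cetn2 calls and lost the other 3, and called Cetn2 lower in kidney than in lung (-2.16). The number was 1 without liver library 1, 2 without liver library 2, 3 without kidney library 2 or either spleen library, and 8 without lung library 2. NTS adduct levels differed in 4 of 60, beside 5.11% of 99012. Xab2 was at 14.2 and 13.9 (kidney), 4.72 and 5.21 (liver), 6.82 and 8.70 (lung) and 7.52 and 7.39 (spleen), higher in kidney than in liver (1.51, adjusted p = 0.000855) and lung (0.85, adjusted p = 0.0413). Xpc was higher in kidney than in liver (0.78, adjusted p = 0.0295) and spleen (0.87, adjusted p = 0.0311). Without kidney library 1 the 2 Xpc calls and that of Xab2 against lung were lost, the number was 1 without kidney library 2 or liver library 1 and 2 without liver library 2, and DESeq2 called 0 of the 4.

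The other genes of the pathway were counted in the same strand tests. In XR-seq the TS was called higher in 30 of 36 gene and organ pairs for the partners of recognition and 61 of 64 for verification, opening and incision. For gap filling and ligation it was 46 of 60, and over all genes 58.1% of 66008. The median log2 ratios of the 3 lists were 4.01, 4.62 and 3.25, beside 4.83 for the members and 2.72 for all genes. In Damage-seq the TS was called lower in 20 of 36, 27 of 64 and 6 of 60 pairs, beside 24.9% of 66008 over all genes. The medians there were -0.92, -0.73 and -0.23, beside -0.84 for the members and -0.35 for all genes.

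Across the 10 members within an organ, RNA level and repair were set side by side as a description, since the points share their libraries and differ in length and GG content. Spearman's rho between RPKM and TS repair was -0.00606 (kidney), -0.632 (liver), 0.358 (lung) and -0.200 (spleen). Between RPKM and TS adduct level it was -0.77 (kidney), -0.648 (liver), -0.527 (lung) and -0.697 (spleen).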

How the data were processed

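The authors deposited raw read counts per gene for RNA-seq, and raw counts per gene and strand for Damage-seq and XR-seq. In their processing, Damage-seq and XR-seq reads were trimmed with cutadapt, aligned to mm10 with BWA, stripped of duplicates and filtered for GG at the damage position, and RNA-seq reads were aligned with STAR and counted with FeatureCounts. From those counts, genes were placed by Ensembl identifier in GENCODE M21 (GRCm38), and 1 unnamed line per Damage-seq or XR-seq file was left out. The strand tests were run on genes shorter than 100000 bp that held at least 10 GG on the TS or on the NTS and had a summed count of at least 20 in every assay. RPKM and CPM per 1000 GG were computed from the counts and the library totals.

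Tests used edgeR 4.0.16 (R 4.3.3; glmQLFit, with glmTreat at a log2 threshold of 0.4 for RNA-seq and glmQLFTest otherwise) over all genes that passed, with Benjamini-Hochberg adjustment over the whole table and a threshold of 0.05. RNA-seq was fitted per organ for cisplatin against control, and jointly for organs. TS and NTS were compared in 1 fit per assay with GG offsets and library totals over both strands. The self-tests on simulated counts recovered the changes put in. Those changes were larger than any RNA change of a member after cisplatin and were put into well-covered genes. All counts were drawn with the same set spread, which was not estimated from these libraries. The self-tests therefore do not show the power for small changes, for low counts or at the spread between these libraries. DESeq2 1.42.0, TMM scaling, other filters, the replicate block and leaving out each library were alternatives. Every member was named in each comparison, with the treatment genes, the overlapping genes, the genes most like each member and the called genes of the pathway lists. The members, the lists (partners of recognition; verification, opening and incision; gap filling and ligation; markers of organs and other cells) and the tests were chosen with earlier results of these data known. A strand setting for the RNA-seq counts is not given in the sources used here. Figures were drawn with matplotlib 3.10.9. Intervals cover counting error only, and a floor covers only that of the count of 0.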

Additional observations from a re-analysis of the deposited data

Results flagged for a closer look

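The difference between organs in the XR-seq ratio of TS to NTS repair was tested in edgeR by an interaction of strand and organ, and 13 of the 60 member comparisons passed it, in each with the lower ratio in kidney or liver. As kidney minus lung, the log2 differences were -3.41 for Xab2, -2.22 for Ercc6 and -1.32 for Xpc. As kidney minus spleen they were -2.39 for Xab2 and -2.46 for Ercc6. As liver minus lung they were -4.30 for Xab2, -3.51 for Rad23b, -2.50 for Ddb1 and -1.68 for Ercc6. As liver minus spleen they were -3.29 for Xab2 and -1.92 for Ercc6. As kidney minus liver they were -2.28 for Ercc8 and -1.36 for Xpc. None of the 13 held when either liver library was left out, and those between kidney and lung or spleen were lost as well. Over all genes, too, the number of calls varied widely with the library left out, and its range is given below. The loss was therefore not shown to be particular to the members.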

How the results depend on the processing

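The member counts for cisplatin in RNA-seq were 0 under every alternative, and of the values for single members 6493 kept direction and side of the threshold, 237 lost the call, 98 gained it and 11 turned. The cause of no change below was tested. Genes changed by cisplatin numbered 1710 in kidney and 810 in lung against a log2 change of 0, 1899, 153, 1077 and 58 in kidney, liver, lung and spleen with no filter on low counts (643 for the response between organs), 187 in liver and 85 in spleen with DESeq2, and 517 in liver and 71 in lung in one fit over all organs. With each library a replicate they were 1608 in lung, 60 in spleen and 1282 for the response. A replicate block gave 3180 in kidney and 808 in liver, and with each library a replicate 1914 in lung, 89 in spleen and 3914 for the response. The labels do not say what a shared replicate number marks, and with 2 numbers a group these data do not settle whether it pairs samples (correlation of deviations between control and cisplatin kidney 0.585, liver 0.483, lung 0.0861, spleen 0.322). The replicate block called 10, 20, 9, 6 and 4 members for organ differences in RNA, XR-seq TS, XR-seq NTS, Damage-seq TS and Damage-seq NTS. Against a log2 change of 0, 19 member differences between organs passed. Scaling each strand on its own gave 4211 ratio differences (7 members) and 7 members in the Damage-seq strand test, and dropping the length limit 12093. In Damage-seq, DESeq2 gave 9152 (11 members) for the strands, 1748 (0) for TS and 271 (0) for NTS between organs, and TMM scaling 3 members for TS and 3320 genes (1) for NTS. Members lowest in liver by RNA were 2 with TMM sizes and 8 without.

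The signs that turned were those of Ddb2 (-2.17, -0.97, -2.0 and -1.42 in kidney, liver, lung and spleen) and Xab2 (-0.90 in kidney, -1.40 in liver) in the XR-seq strand test with each strand scaled on its own, Ercc6 TS kidney minus liver (-0.04 with TMM and with DESeq2), Uvssa TS liver minus spleen (0.24) and Ddb2 NTS kidney minus lung (-0.59) with DESeq2, and Uvssa NTS lung minus spleen when a library was left out (-1.16 without spleen replicate 1, and 8.12 without spleen replicate 2, which leaves a library with 0 reads).

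Leaving out 1 library gave 122 to 2021 genes in kidney, 22 to 1802 in liver, 0 to 341 in lung and 22 to 97 in spleen, and 16 to 318 for the response. Organ differences in RNA were 39521 to 57570 (members 5 to 19). For XR-seq they were 35957 to 46564 for the strands (33 to 38), 26536 to 44016 for TS (16 to 27), 7277 to 25930 for NTS (5 to 16) and 0 to 21776 for the ratio (0 to 20). For Damage-seq they were 13166 to 16894 (12 to 19), 5418 to 10858 (1 to 8) and 1832 to 5803 (1 to 4). Members lowest in liver were 7 to 8 by RNA and 5 to 6 by XR-seq TS. Cetn2 in kidney XR-seq without replicate 2 had no reads and no value. Low Damage-seq counts limit what could be called.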

Other observations

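For each member, the gene whose log2(RPKM + 1) ran most closely alongside over the 14 RNA-seq samples was picked among 13112 genes with a mean RPKM of at least 1. The pairs, with Pearson's r as a description over samples that share organs and treatment, were Ercc8 with Mxd1 (0.99), Xab2 with Ppp1r8 (0.988), Cetn2 with Sri (0.988), Xpc with Kif1bp (0.987), Uvssa with Mysm1 (0.985), Ddb2 with Mdm4 (0.981), Ercc6 with Ubp1 (0.979), Elof1 with Esam (0.974), Ddb1 with Cx3cl1 (0.951) and Rad23b with Cxcl1 (0.929). Among the members themselves, Uvssa and Ddb2 were most alike (0.940), whereas the nearest member to Rad23b was Ddb1 at -0.148.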
